A study of Mus musculus with 12 samples.

Results

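Nodal, Lefty1, Lefty2, Tdgf1 and Gdf3 were selected by name from RNAseq tables of 25759 genes, and all 5 were present in each of the 12 tables. The cells were HATX3 ESCs, a mouse embryonic stem cell line that arose from haploid embryos, became diploid in culture and carries Xist under a doxycycline-inducible promoter. The 4 groups of 3 libraries were wild-type cells (WT, replicates 1, 2 and 3, the parental line) and cells with a homozygous CRISPR/Cas9 deletion around the Cdk8 start codon (ΔCdk8, clones 8, 11 and 15), each uninduced and after 48 h of Xist expression. Every induced library had doxycycline and every uninduced library had none, so that effects of doxycycline and of Xist cannot be told apart. Each ΔCdk8 library is 1 clone, and the sources used here do not say whether WT libraries came from separate cultures, so p-values measure the spread between these samples. The paper calls the parental line polyclonal and says that it might have held some differentiated cells. Effects of the genotype and of deriving clones therefore cannot be told apart. The cells were maintained in serum and LIF, with inhibitors of Gsk3β and Mek1/2 in maintenance culture.

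Nodal is a secreted ligand of the TGFβ family that signals through activin receptors and the transcription factors Smad2 and Smad3, which act with partners such as Foxh1. Tdgf1 (Cripto) is the membrane-anchored co-receptor that Nodal needs, and Gdf3 is a related ligand that also uses Cripto. Lefty1 and Lefty2 are secreted antagonists that block Nodal and its co-receptor, and both are themselves induced by Nodal signalling, so that the pathway restrains itself. In pluripotent cells and the early embryo Nodal maintains the epiblast, patterns the anterior-posterior axis and later sets left-right asymmetry.

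Lefty1 (ENSMUSG00000038793) and Lefty2 (ENSMUSG00000066652) lie 35918 bp apart on chromosome 1 (GRCm38, forward strand), at 180935022 to 180938400 and 180893108 to 180899103. Their separate read counts depend on how far the sequences differ, which was measured on the transcripts of the GENCODE M21 annotation. Over the 1107 aligned coding bases 91.9% were identical, and the longest run shared by the transcripts was 140 bases. Of the 1496 windows of 1 read length in the Lefty1 transcript, 17 also occurred in that of Lefty2. Between 95.8% and 100% of the Lefty1 reads and between 98.9% and 100% of the Lefty2 reads of a library were uniquely mapped, so that reads of the pair were largely assigned to 1 gene.

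Nodal (ENSMUSG00000037171) lies on the forward strand of chromosome 10 at 61417972 to 61425338. Tdgf1 (ENSMUSG00000032494) lies on the reverse strand of chromosome 9 at 110939603 to 110946158, and Gdf3 (ENSMUSG00000030117) on the reverse strand of chromosome 6 at 122605403 to 122610087. The RefSeq promoter table (GRCm38.p6) held 2 of the 5 genes, Nodal and Tdgf1. The 250 bases before their start sites are shown because the log2 changes of these genes on induction had opposite signs in WT. Capitals mark matches to CAGAC (a SMAD motif) or GGGCGTGG (a KLF motif) on either strand.
Nodal, chr10:61417722-61417971, forward strand: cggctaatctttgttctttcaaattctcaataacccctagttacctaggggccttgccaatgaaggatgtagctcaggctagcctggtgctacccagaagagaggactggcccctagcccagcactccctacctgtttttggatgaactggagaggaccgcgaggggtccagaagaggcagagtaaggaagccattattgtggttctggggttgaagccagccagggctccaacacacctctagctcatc
Tdgf1, chr9:110946159-110946408, reverse strand: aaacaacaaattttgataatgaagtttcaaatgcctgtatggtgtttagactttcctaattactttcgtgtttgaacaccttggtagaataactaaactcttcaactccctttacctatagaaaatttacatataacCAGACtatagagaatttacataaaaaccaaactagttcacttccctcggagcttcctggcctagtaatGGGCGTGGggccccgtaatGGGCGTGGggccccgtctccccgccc
The Tdgf1 window held GGGCGTGG 2 times, starting 45 and 26 bases before the start site, and CAGAC 1 time, starting 113 bases before it. Neither window held AATNCACA (the FOXH1 motif) or CTTTGAA (a TCF/LEF motif), and the Nodal window held none of the 4. The matches do not overlap. Among the same windows of 32851 promoters, GGGCGTGG occurred in 4.79%, CAGAC in 42.2%, AATNCACA in 3.18% and CTTTGAA in 4.46%. A match describes letters only.

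The libraries held from 22170087 to 60798578 gene reads, and no library repeated another. The tables give 1 value over the whole Cdk8 gene, so that the deleted bases around its start codon were not examined and its level was not used to check the genotype. Cdk8 stood at 64.2, 69.4 and 74.2 TPM in uninduced WT 1, 2 and 3 and at 34.4, 56.8 and 85.3 TPM in uninduced clones 8, 11 and 15. In the induced libraries it stood at 51.6, 51.5 and 53.1 TPM in WT and at 33.4, 57.8 and 84.9 TPM in the clones. Cdk8 RNA was thus counted in all 3 clones, below every WT library of the same state in clone 8 and above every one in clone 15. TPM gives exon reads per exon length as a share of the library, so that it can be compared between genes. All 8 ESC markers, among them Pou5f1, Sox2 and Nanog, reached a mean of 1 TPM in every group. Clone 11 stood apart for several of the genes below, and results that rest on it are given with and without it. For the fits without clone 11, no share of all genes is given beside the adjusted p-values. In such bulk samples, fewer cells expressing a gene and less RNA per cell cannot be told apart.

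Tdgf1 was the most abundant of the 5 genes in every library, between 263 and 960 TPM. Gdf3 followed, between 67.7 and 207 TPM. Nodal ranged from 11.8 to 52.9 TPM, Lefty2 from 0.55 to 84.0 TPM and Lefty1 from 0.0962 to 76.8 TPM. The highest library therefore exceeded the lowest 3.06-fold for Gdf3, 3.65-fold for Tdgf1, 4.47-fold for Nodal, 153-fold for Lefty2 and 798-fold for Lefty1, which makes the antagonists the most variable members. The lowest Lefty1 value rested on 2 reads.

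**Figure D1:**
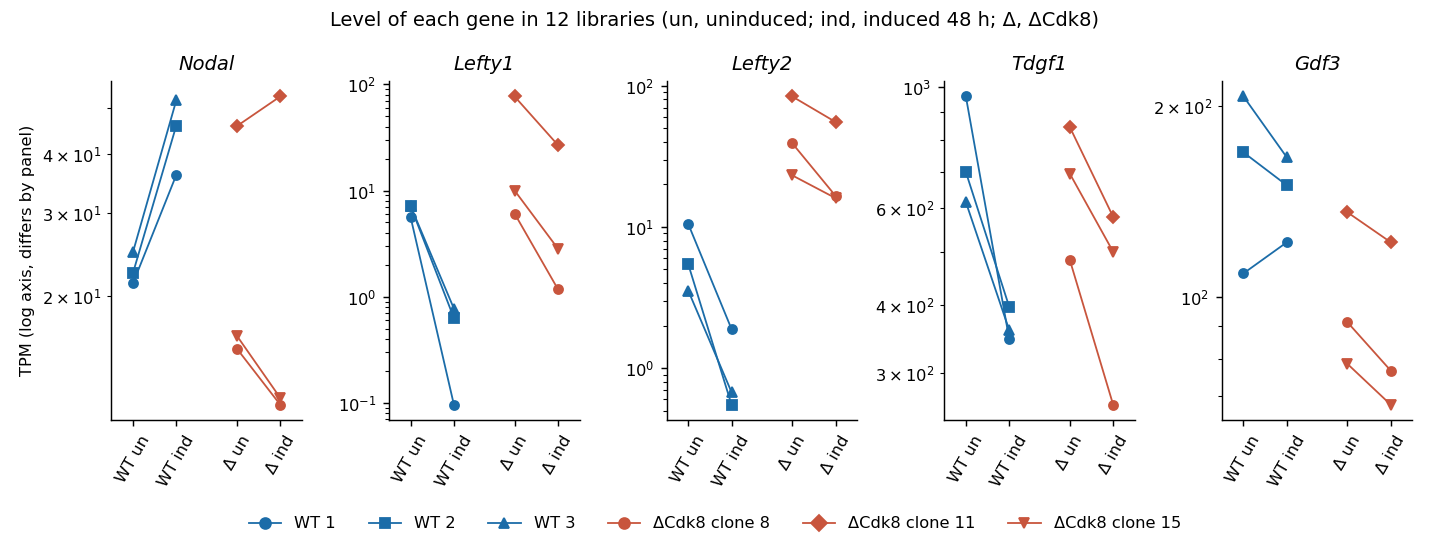
TPM of each gene in the 12 libraries on a log axis that differs by panel, with a line joining the uninduced and induced library of each WT number or clone. Lefty1 and Lefty2 lie lower in the induced library of all 6 pairs, whereas Nodal lies higher in the 3 WT pairs and in clone 11, and lower in clones 8 and 15.

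The first comparison asked which of these genes differ between ΔCdk8 and WT before Xist is expressed. Lefty2 was higher in all 3 clones than in any WT library, Lefty1 and Nodal were highest in clone 11, and the Gdf3 levels of clones 8 and 15 lay below all WT libraries. A gene was called when its fold change exceeded 2 and its adjusted p was under 0.01 in edgeR (quasi-likelihood test, p-values adjusted by Benjamini-Hochberg over all genes). By this rule 0 of 14646 genes (0.0%) were called, 2982 genes had an unadjusted p under 0.05, and none of the 5 genes passed. DESeq2's Wald test called 386 genes (2.64%), of which Lefty2 was the only member.

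Lefty2 was at 10.5, 5.45 and 3.54 TPM in uninduced WT 1, 2 and 3 and at 39.2, 84.0 and 23.2 TPM in uninduced clones 8, 11 and 15. The groups did not overlap, and the lowest clone exceeded the highest WT library. The log2 fold change was 2.81 (SE 0.63, n = 3 per group), with an adjusted p of 0.13 in edgeR and 0.00015 in DESeq2. Without clone 11 it was 2.02, with an edgeR adjusted p of 0.0496.

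Lefty1 was at 5.62, 7.13 and 7.14 TPM in uninduced WT 1, 2 and 3 and at 6.07, 76.8 and 10 TPM in clones 8, 11 and 15. Clone 8 lay within the WT range, clone 15 just above it, and clone 11 held 9.54 times the mean of the other clones. The log2 fold change was 2.14 (SE 0.95, n = 3, edgeR adjusted p = 0.256) with all clones and -0.03 without clone 11, so that the Lefty1 difference rested on that clone.

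Nodal was at 21.3, 22.4 and 24.8 TPM in uninduced WT and at 15.5, 45.8 and 16.5 TPM in uninduced clones 8, 11 and 15. Clones 8 and 15 lay below all WT libraries and clone 11 above them, at 2.86 times the mean of the other clones. The log2 fold change of 0.07 (SE 0.47, n = 3, edgeR adjusted p = 0.942) thus averaged opposite deviations, and without clone 11 it was -0.78 (edgeR adjusted p = 0.0465).

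Gdf3 was at 109, 169 and 207 TPM in uninduced WT 1, 2 and 3 and at 91.3, 136 and 78.5 TPM in clones 8, 11 and 15, with clone 11 inside the WT range. Its log2 fold change was -0.79 (SE 0.33, n = 3, edgeR adjusted p = 0.235), and -1.17 without clone 11 (edgeR adjusted p = 0.0492). Tdgf1 was at 960, 699 and 616 TPM in WT and at 483, 844 and 694 TPM in the clones, which overlapped. Its log2 fold change was -0.31 (SE 0.28, n = 3, edgeR adjusted p = 0.525), and -0.62 without clone 11 (edgeR adjusted p = 0.108).

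The same contrast was taken in the induced libraries, which come from the same clones and WT numbers. The separation of Lefty2 was wider there, Lefty1 of every clone exceeded all WT libraries, and Nodal of clones 8 and 15 lay below all WT libraries. With edgeR 0 of 14143 genes (0.0%) were called, although 3668 had an unadjusted p under 0.05. DESeq2 called 821 genes (5.8%), among them Lefty1 and Lefty2.

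Lefty2 was at 1.89, 0.55 and 0.675 TPM in induced WT 1, 2 and 3 and at 16.6, 55.4 and 16.0 TPM in induced clones 8, 11 and 15. The log2 fold change was 4.75 (SE 0.76, n = 3, edgeR adjusted p = 0.0534), and 3.75 without clone 11 (edgeR adjusted p = 0.0148). DESeq2 gave an adjusted p of 1.5e-10. Every clone lay above every WT library.

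Lefty1 was at 0.0962, 0.63 and 0.773 TPM in induced WT, from 2, 9 and 21 reads, and at 1.18, 26.8 and 2.84 TPM in clones 8, 11 and 15. The groups did not overlap, and clone 11 held 13.3 times the mean of the other clones. The log2 fold change was 4.29 (SE 1.35, n = 3), with an adjusted p of 0.111 in edgeR and 0.00197 in DESeq2. Without clone 11 it was 1.70 (edgeR adjusted p = 0.176).

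Nodal was at 36.1, 45.9 and 51.9 TPM in induced WT and at 11.8, 52.9 and 12.2 TPM in clones 8, 11 and 15. Clones 8 and 15 held 0.265 and 0.273 of the WT mean and clone 11 held 1.19 of it. The log2 fold change was -0.93 (SE 0.63, n = 3, edgeR adjusted p = 0.372) with all clones and -2.19 without clone 11 (edgeR adjusted p = 0.0121). Gdf3 was at 122, 150 and 166 TPM in induced WT and at 76.6, 122 and 67.7 TPM in the clones, with a log2 fold change of -0.86 (SE 0.31, n = 3, edgeR adjusted p = 0.141), and -1.27 without clone 11 (edgeR adjusted p = 0.0205). Tdgf1 was at 347, 397 and 360 TPM in WT and at 263, 579 and 500 TPM in the clones, with a log2 fold change of 0.13 (SE 0.30, n = 3, edgeR adjusted p = 0.805), and -0.21 without clone 11 (edgeR adjusted p = 0.554). Clone 8 was below and clones 11 and 15 above the WT libraries for Tdgf1.

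The next comparison asked what 48 h of induction changed in WT cells. Lefty1 and Lefty2 were lower and Nodal was higher in all 3 pairs, and Tdgf1 was lower in all 3. Libraries of the same number deviated from their group means together, so a fit with the replicate number as a block was set beside the fit without it. The unblocked edgeR fit called 162 of 14006 genes (1.16%), the blocked fit 553 (3.95%) and DESeq2 662 (4.73%). None of the 5 genes passed without the block, although Lefty1, Nodal and Tdgf1 had an adjusted p under 0.05 there, as had 4.56% of all genes. Lefty1 and Lefty2 passed with it, and Lefty1, Lefty2 and Tdgf1 passed in DESeq2.

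Lefty1 decreased from 5.62 to 0.0962 TPM in WT 1, from 7.13 to 0.63 TPM in WT 2 and from 7.14 to 0.773 TPM in WT 3. The blocked log2 fold change was -3.85 (SE 0.49, n = 3 pairs, edgeR adjusted p = 0.00571), against -3.74 without the block (edgeR adjusted p = 0.0267). In WT 1 the reads fell from 122 to 2, a ratio of 0.0157 per mapped read with a 95% interval of 0.00188 to 0.058 that covers counting error only. In WT 2 and WT 3 the corresponding ratios were 0.0861 and 0.104, so that Lefty1 was strongly reduced in each pair.

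Lefty2 decreased from 10.5 to 1.89 TPM in WT 1, from 5.45 to 0.55 TPM in WT 2 and from 3.54 to 0.675 TPM in WT 3. The blocked log2 fold change was -2.65 (SE 0.26, n = 3 pairs, edgeR adjusted p = 0.00279), against -2.64 without the block (edgeR adjusted p = 0.0612). The induced and uninduced libraries did not overlap. Without WT 2 in both states, neither antagonist passed in the blocked fit, with adjusted p-values of 0.0458 for Lefty1 and 0.0266 for Lefty2.

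Nodal, the ligand, differed in the other direction, from 21.3 to 36.1 TPM in WT 1, from 22.4 to 45.9 TPM in WT 2 and from 24.8 to 51.9 TPM in WT 3. The induced and uninduced libraries did not overlap. The blocked log2 fold change was 0.99 (SE 0.11, n = 3 pairs, edgeR adjusted p = 0.00386), a fold of 1.99 that lies just under the minimum of 2, so that Nodal was not called. Without WT 1 in both states it was 1.07 and passed.

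Tdgf1 was at 960, 699 and 616 TPM in uninduced WT 1, 2 and 3 and at 347, 397 and 360 TPM after induction, again without overlap. The blocked log2 fold change was -0.99 (SE 0.17, n = 3 pairs, edgeR adjusted p = 0.0134), which missed both limits. DESeq2 gave -1.03 with an adjusted p of 3.6e-05 and called it, and the blocked fit without WT 3 in both states also did, at -1.15. Gdf3 differed by less than the spread between libraries, with a blocked log2 fold change of -0.08 (SE 0.09, n = 3 pairs, edgeR adjusted p = 0.51).

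In the ΔCdk8 clones induction was compared in the same way. Lefty1, Lefty2 and Tdgf1 were lower in the induced library of all 3 clones, by less than in WT for the antagonists, and Nodal had no common direction. The unblocked edgeR fit called 0 of 14832 genes (0.0%) with 392 at an unadjusted p under 0.05, and DESeq2 called 36 (0.243%), with no member among them (it gave no adjusted p for Lefty1). The fit with the clone as a block called 208 genes (1.4%), and Lefty1 was the only member among them.

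Lefty1 went from 6.07 to 1.18 TPM in clone 8, from 76.8 to 26.8 TPM in clone 11 and from 10 to 2.84 TPM in clone 15. The blocked log2 fold change was -1.79 (SE 0.14, n = 3 pairs, edgeR adjusted p = 7.7e-08), against -1.60 without the block (edgeR adjusted p = 1.0). Lefty1 was also called in the blocked fit without each clone in turn, at -1.64 to -2.08.

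Lefty2 went from 39.2 to 16.6 TPM in clone 8, from 84.0 to 55.4 TPM in clone 11 and from 23.2 to 16.0 TPM in clone 15. With the block the log2 fold change was -0.77 (SE 0.11, n = 3 pairs, edgeR adjusted p = 6.47e-05), below the fold minimum. Tdgf1 showed the same pattern at -0.61 (SE 0.08, n = 3 pairs, edgeR adjusted p = 2.88e-05). The order of the clones by TPM was the same in both states for each of the 5 genes.

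Nodal went from 15.5 to 11.8 TPM in clone 8, from 45.8 to 52.9 TPM in clone 11 and from 16.5 to 12.2 TPM in clone 15. Clones 8 and 15 thus went down and clone 11 slightly up. With the block the log2 fold change was -0.18 (SE 0.12, n = 3 pairs, edgeR adjusted p = 0.395), and -0.42 without clone 11 (edgeR adjusted p = 0.044). Gdf3 gave -0.19 (SE 0.07, n = 3 pairs, edgeR adjusted p = 0.104) and was lower in all 3 induced clones.

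**Figure D2:**
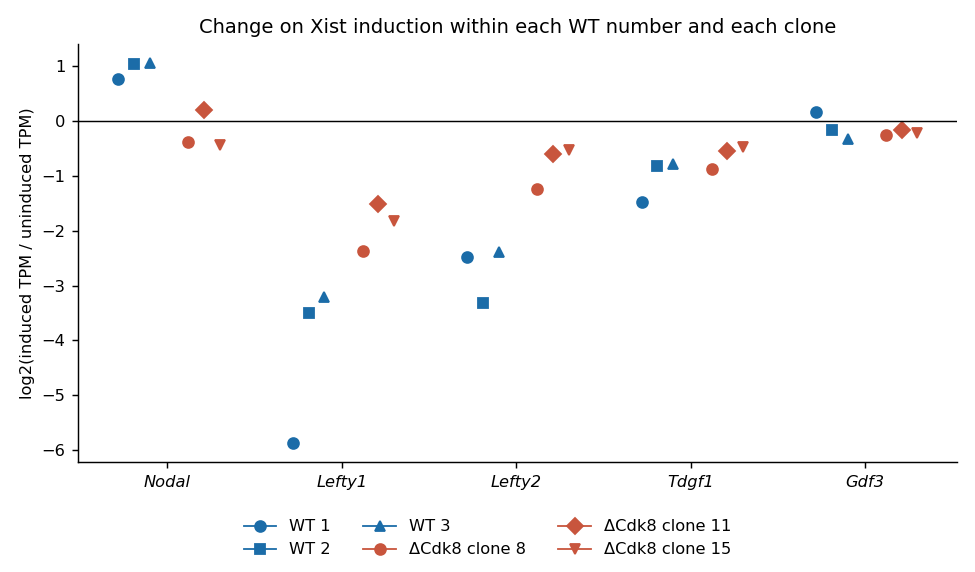
Log2 ratio of induced to uninduced TPM within each WT number (blue) and each ΔCdk8 clone (red), with 0 marking no change. For Lefty1, Lefty2 and Nodal the 3 WT pairs and the 3 clone pairs do not overlap, whereas for Tdgf1 and Gdf3 they do.

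The interaction over all 12 libraries tested whether the effect of induction differed between genotypes. By RT-PCR the paper found more Xist RNA in WT than in ΔCdk8 cells. By RNA FISH it found comparable amounts in the Xist clusters of both. The part of the Xist level in the differences below was not tested. For Lefty1, Lefty2 and Nodal the 3 clone pairs lay apart from the 3 WT pairs: the ratios of induced to uninduced RNA were higher in the clones for the antagonists and lower for Nodal. The unblocked edgeR fit called 0 of 15137 genes (0.0%), with 587 at an unadjusted p under 0.05, and DESeq2 called 33 (0.218%), with no member among them. The blocked fit called 151 genes (0.998%), including Lefty2 and Nodal. At an adjusted p under 0.05 with no fold minimum, which 6.01% of all genes passed, it held Lefty1 too.

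Within pairs, the Lefty2 TPM ratio of induced to uninduced was 0.18, 0.101 and 0.191 in WT 1, 2 and 3 and 0.422, 0.66 and 0.692 in clones 8, 11 and 15. The log2 change in ΔCdk8 minus that in WT was 1.87 (SE 0.26, n = 3 pairs per genotype, blocked edgeR adjusted p = 0.00464). For Lefty1 the ratios were 0.0171, 0.0884 and 0.108 in WT and 0.195, 0.348 and 0.283 in the clones. The Lefty1 difference was 1.96 (SE 0.45, n = 3 pairs per genotype, blocked edgeR adjusted p = 0.033), which did not pass the limit of 0.01. The adjusted p rose above 0.05 when WT 2 (0.0781), clone 8 (0.0848), clone 11 (0.153) or clone 15 (0.115) was left out of the blocked edgeR fit, and Lefty1 was called without WT 1 (1.53, adjusted p = 0.00534).

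The Nodal ratio was 1.69, 2.05 and 2.09 in WT 1, 2 and 3 and 0.764, 1.16 and 0.735 in clones 8, 11 and 15. The log2 difference was -1.16 (SE 0.19, n = 3 pairs per genotype, blocked edgeR adjusted p = 0.00934), and -1.38 without clone 11 (adjusted p = 0.0097). The calls in this fit depended on single pairs. Lefty2 was not called without clone 11 (1.78, adjusted p = 0.0297), and neither gene was called without WT 2, WT 3, clone 8 or clone 15, where the adjusted p-values ranged from 0.0111 to 0.0611. For Tdgf1 the difference was 0.40 (SE 0.20, n = 3 pairs per genotype, blocked edgeR adjusted p = 0.26) and for Gdf3 -0.09 (SE 0.11, adjusted p = 0.679).

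The amount of antagonist RNA per ligand RNA was taken as the summed TPM of Lefty1 and Lefty2 over the TPM of Nodal. In uninduced WT 1, 2 and 3 it was 0.756, 0.563 and 0.43, so that Nodal RNA exceeded Lefty RNA in each. In uninduced clones 8, 11 and 15 it was 2.93, 3.51 and 2.01, above 1 in each. After induction it was 0.0551, 0.0257 and 0.0279 in WT and 1.5, 1.55 and 1.55 in the clones. The ratio thus separated the genotypes in both states, clone 11 included, and the induced clones were nearly equal although their Nodal levels differed 4.41-fold between clone 11 and the mean of the others.

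On the log2 scale the mean ratio of the clones exceeded that of WT by 2.27 in uninduced cells, a 4.83-fold difference, with an SD of 0.41 in each genotype. In induced cells it exceeded it by 5.49, a 45.1-fold difference, with an SD of 0.03 in the clones and 0.60 in WT. The two-sided exact permutation test gave p = 0.1 in each state, the smallest that 3 against 3 libraries allow. With Lefty1 alone in place of the sum, the log2 difference was 1.35 in uninduced and 4.80 in induced cells, and with Lefty2 alone it was 2.86 and 5.95.

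**Figure D3:**
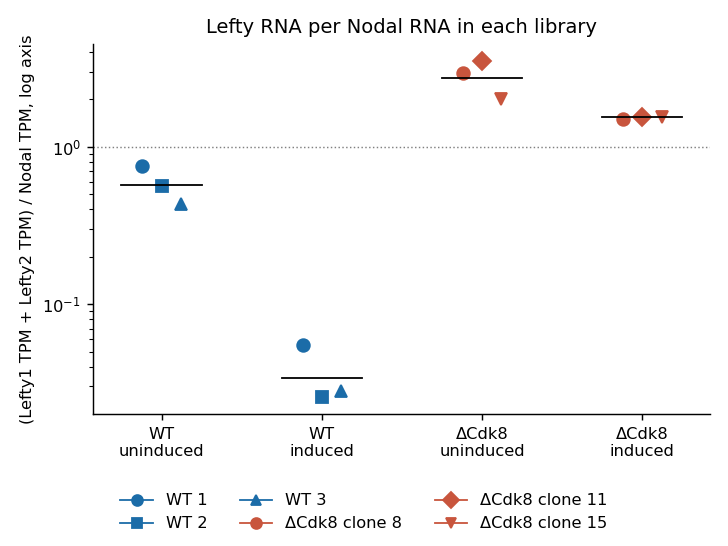
Summed Lefty1 and Lefty2 TPM over Nodal TPM in each library on a log axis, with bars at the geometric mean of each group and a dotted line at 1. All 6 ΔCdk8 libraries lie above 1 and all 6 WT libraries below it, and the induced WT libraries lie lowest.

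The other genes of the pathway were described from 6 lists with 34 genes, of which 25 reached a mean of 1 TPM over the 12 libraries. In uninduced cells 27 were tested between genotypes and none was called in edgeR. DESeq2 called 2 of the 27 higher in uninduced cells, beside 2.64% of all genes, and 3 of 27 higher and 1 lower in induced cells, beside 5.8%. At an unadjusted p under 0.05, 7 were higher and 1 was lower in ΔCdk8, and the median log2 fold change was 0.11, beside 20.4% of all genes at that p and a median of 0.03. In induced cells 7 of 27 were higher and 3 lower at that p, beside 25.9% of all genes.

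Among other ligands, 1 of 2 tested genes was higher at an unadjusted p under 0.05, beside the 20.4% of all genes. The other tested gene, Gdf1, had 0 uniquely mapped reads in every library, so that its level rests on reads that were not uniquely mapped. Inhbb, a subunit of activin B, stood at 2.23, 1.24 and 0.572 TPM in uninduced WT and at 2.83, 52.7 and 2.10 TPM in clones 8, 11 and 15. It was high in clone 11 alone, at 21.4 times the mean of the other clones in each state. Its log2 fold change of 3.86 (SE 1.36, edgeR adjusted p = 0.197) was 0.70 without clone 11.

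Of the response genes, 3 of 5 tested were higher in uninduced ΔCdk8 at an unadjusted p under 0.05, beside 20.4% of all genes, and the median log2 fold change of the 5 was 0.89. Pmepa1, a feedback inhibitor of TGFβ signalling, was at 2.30, 0.812 and 1.21 TPM in WT and at 4.31, 9.71 and 4.96 TPM in the clones. It gave 2.09 (SE 0.52, n = 3), with an adjusted p of 0.143 in edgeR and 0.00227 in DESeq2. Smad7, the inhibitory SMAD, was at 17.4, 14.5 and 14.9 TPM in uninduced WT and at 31.3, 34.3 and 27.3 TPM in the clones, without overlap. Its log2 fold change was 0.89 (SE 0.19, edgeR adjusted p = 0.13), and 1.22 (SE 0.30) in induced cells, where DESeq2 called it with an adjusted p of 0.00506. Eomes, a T-box transcription factor of early mesendoderm, gave 1.77 in uninduced and 1.87 in induced cells, the latter called by DESeq2 with an adjusted p of 0.00593.

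Foxh1, the nuclear partner of SMADs at Nodal targets, was the member of its list with the widest difference in uninduced cells. It stood at 80.8, 142 and 159 TPM in uninduced WT and at 78.6, 69.7 and 64.5 TPM in clones 8, 11 and 15, with WT 1 near the clones. Its log2 fold change was -1.0 (SE 0.26, edgeR adjusted p = 0.151), and -1.06 in induced cells, where DESeq2 called it with an adjusted p of 0.00852. Of the 9 SMADs and partners tested in uninduced cells, 1 was higher and 1 lower at an unadjusted p under 0.05, beside 20.4% of all genes.

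Of the receptors, Tgfbr2, the type II TGFβ receptor, gave 1.92 (SE 0.42, n = 3) in uninduced cells and was called by DESeq2 with an adjusted p of 0.00141, at levels of 0.162 to 0.246 TPM in WT and 0.509 to 1.08 TPM in the clones. Acvr2b, a type II activin receptor and the detected receptor with the widest difference, gave -0.50 (SE 0.26, edgeR adjusted p = 0.306). Fstl3, an antagonist that binds activins, gave 1.01 (SE 0.65, edgeR adjusted p = 0.381) and was below the lowest WT library in clone 11. Pcsk6, a convertase that cleaves the Nodal precursor, gave 0.57 (SE 0.24, edgeR adjusted p = 0.238).

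Furin, the other convertase of the Nodal precursor, was the 1 of 27 other pathway genes called in the blocked interaction, beside 0.998% of all genes. It stood at 7.55, 9.59 and 10.5 TPM in uninduced WT and at 3.9, 3.93 and 3.41 TPM after induction, and fell by 1.23 on the log2 scale (SE 0.16, blocked edgeR adjusted p = 0.00609). In clones 8, 11 and 15 it stood at 21, 6.21 and 19.0 TPM and at 23.2, 8.71 and 16.0 TPM after induction. The difference of the changes was 1.38 (SE 0.22, n = 3 pairs per genotype, blocked edgeR adjusted p = 0.00778). In induced cells DESeq2 called Furin higher in ΔCdk8, at 1.85 with an adjusted p of 1.71e-05.

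Skil, a repressor that binds SMADs, fell by 1.02 on the log2 scale in WT (SE 0.13, blocked edgeR adjusted p = 0.00559) and gave -0.75 in ΔCdk8 (SE 0.08, adjusted p = 4.99e-06), under the fold minimum. With Furin and Skil, 2 of 27 pathway genes fell and none rose in WT in the blocked edgeR fit, beside 3.95% of all genes called. At an unadjusted p under 0.05, 8 were higher and 5 lower in that fit, beside 38.9% of all genes. In ΔCdk8 the blocked edgeR fit (1.4% of all genes called) and DESeq2 (0.243%) called none of the 27, and in the blocked fit 3 were higher and 3 lower at an unadjusted p under 0.05, beside 24.8% of all genes.

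**Figure D4:**
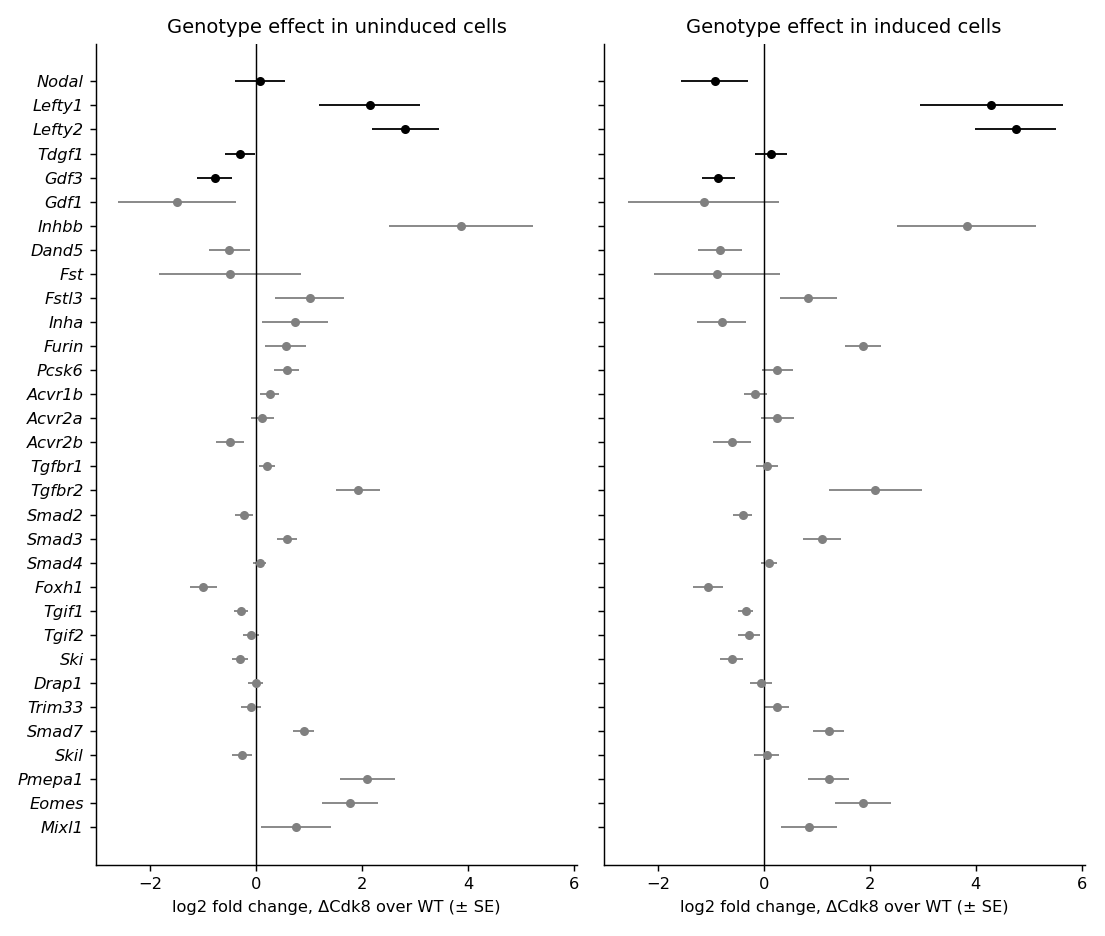
Log2 fold change of ΔCdk8 over WT (edgeR, error bars ± SE, n = 3 per group) for the 5 genes (black) and the other tested genes of the 6 pathway lists (grey), in uninduced and induced cells. Lefty1, Lefty2 and Inhbb lie farthest to the right in both panels, with wide error bars.

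The genes with the most similar pattern were found by the root-mean-square difference of mean-centred log2(TPM + 0.1) profiles over the 12 libraries, among 9597 genes with a mean of at least 5 TPM. For Gdf3 they were Dnajc11, Hgh1 and Rrp1b, with differences of 0.10, 0.12 and 0.13. For Tdgf1 they were Fam169a, Phyhipl and Pin4, at 0.20, 0.22 and 0.23. For Nodal they were Clmp, Sulf2 and Ccdc106, at 0.26, 0.27 and 0.29.

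For the antagonists, whose own profiles spread more widely, the differences were larger. Fgf15, Fgf17 and Armcx1 came closest to Lefty1, at 1.05, 1.07 and 1.27, and Tex11, Hmga2 and Krt17 to Lefty2, at 0.85, 0.89 and 0.96. Armcx1 and Tex11, and Pin4 named for Tdgf1, lie on the X chromosome. The paper reports that Xist represses X-linked genes in these cells, and the part of this repression in the similarity was not tested. Divided by the SD of the gene's own profile, the smallest difference was 0.20 for Gdf3, 0.33 for Nodal, 0.36 for Tdgf1, 0.37 for Lefty2 and 0.44 for Lefty1. The undivided difference between Lefty1 and Lefty2 themselves was 1.5, the one between Nodal and Gdf3 0.56, and the one between Nodal and Lefty2 2.57. Points of a profile share their library and clone, so that these are descriptions without a test.

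Neighbouring genes show whether a whole region differed in a clone. The neighbours were the genes starting within 2 Mb of a member with a mean of at least 5 TPM in uninduced WT, each taken as log2 of the clone over the WT mean. The median of the 19 neighbours of Gdf3 was 0.47, -0.45 and 0.43 in uninduced clones 8, 11 and 15 and 0.42, -0.45 and 0.44 in induced ones. Gdf3 itself was at -0.82, -0.24 and -1.04 in the uninduced clones, below its neighbours in clones 8 and 15 and above them in clone 11. The nearest such genes were Apobec1, at 0.58, -0.61 and 1.05, and Dppa3, at -0.08, -1.55 and -0.49.

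For the other members the neighbour medians of the uninduced clones lay between -0.03 and 0.32. The 35 neighbours of Nodal had a median of -0.03 in clone 11, where Nodal was at 1.01. The 23 neighbours of Lefty2 had medians of 0.02, 0.11 and 0.31 in clones 8, 11 and 15, where Lefty2 was at 2.60, 3.69 and 1.84.

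**Figure D5:**
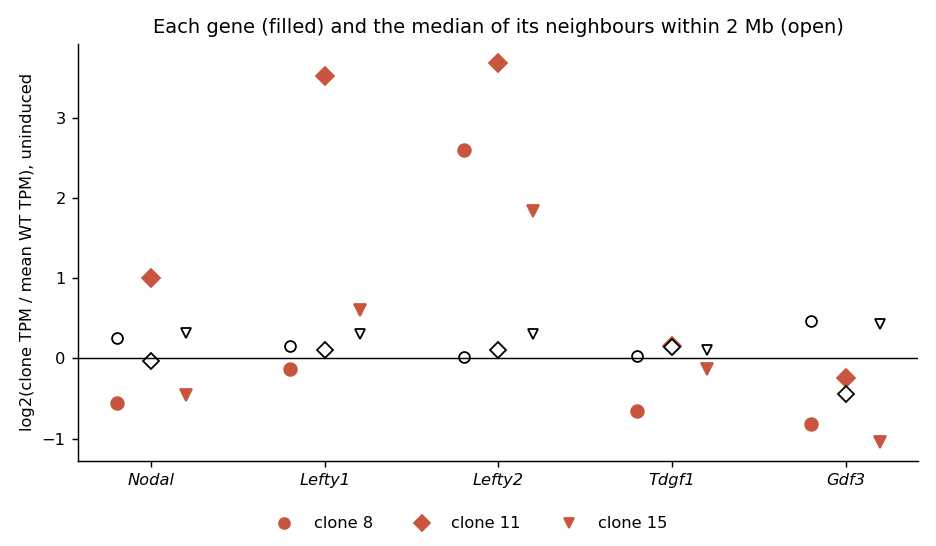
Log2 ratio of each uninduced ΔCdk8 clone to the WT mean for each gene (filled) and the median of its neighbours within 2 Mb (open). Lefty2 lies above its neighbours in all 3 clones, and the neighbours of Gdf3 lie above 0 in clones 8 and 15 and below 0 in clone 11.

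Markers of other cell states were summed in each library. The 5 epiblast markers, which include Fgf5, Otx2 and Dnmt3b, summed to 597 to 1140 TPM in uninduced WT, 370 to 654 TPM in induced WT, 299 to 354 TPM in uninduced ΔCdk8 and 279 to 304 TPM in induced ΔCdk8. The sum was thus lower in ΔCdk8 in both states and lower after induction in each WT pair and each clone. In the blocked edgeR fit, 3 of 5 were called lower on induction in WT (Otx2, Pou3f1 and Sox3), beside 3.95% of all genes, and 2 of 5 in ΔCdk8 (Fgf5 and Otx2), beside 1.4%. Sox3 is X-linked, and the paper reports that Xist represses X-linked genes in these cells, less completely in ΔCdk8. The part of this repression in the Sox3 values was not tested. Dnmt3b made up most of the sum in every library, with 548 to 997 TPM in uninduced WT and 277 to 310 TPM in uninduced ΔCdk8. In uninduced ΔCdk8, 5 of 5 were lower at an unadjusted edgeR p under 0.05, beside 20.4% of all genes, and DESeq2 called 4 of them, beside 2.64% of all genes. In induced ΔCdk8, 4 of 5 were lower at that p, beside 25.9% of all genes, and DESeq2 called none, beside 5.8% of all genes. The fifth, Sox3, gave 0.58 there (SE 1.10, edgeR adjusted p = 0.755).

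The ESC markers did not share 1 direction. Nanog stood at 157, 98.4 and 50.2 TPM in uninduced WT 1, 2 and 3 and at 403, 321 and 192 TPM in clones 8, 11 and 15, without overlap, and its log2 fold change was 1.42 (SE 0.45, edgeR adjusted p = 0.175). Tfcp2l1 stood at 39.4, 16.9 and 10 TPM and at 91.9, 102 and 76.7 TPM, also without overlap, and DESeq2 called it in uninduced cells (1.86, adjusted p = 0.00341) and in induced cells (1.30, adjusted p = 4.08e-06). These were the 2 of 8 ESC markers that were higher in uninduced ΔCdk8 at an unadjusted edgeR p under 0.05, beside 20.4% of all genes, and none was lower. In induced cells 3 of 8 had a positive log2 fold change, with a median of -0.07, and the same 2 were higher at that p, beside 25.9% of all genes. Esrrb gave 0.86 in uninduced (SE 0.43, edgeR adjusted p = 0.29) and -0.42 in induced cells (SE 0.20, edgeR adjusted p = 0.221). In the WT induction 4 of 8 were higher at that p without the block, beside 21.2% of all genes, and DESeq2 called Esrrb (1.65, adjusted p = 0.00131). With the block 6 of 8 were higher at that p, beside 38.9% of all genes, and 0 were called. The summed ESC markers overlapped between the genotypes in both states. In the blocked edgeR interaction 4 of 8 ESC markers were lower and 3 of 5 epiblast markers higher at an unadjusted p under 0.05. Of all genes 22.7% were at that p, and no marker of these 2 lists was called.

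The 6 fibroblast markers summed to 8.69 to 17.6 TPM in uninduced WT and 19.7 to 29.3 TPM in uninduced ΔCdk8, and to 5.54 to 15.2 TPM and 21.4 to 32.3 TPM after induction, without overlap in either state. Thy1 made up most of the sum in every library, and Col1a1, Col1a2 and Postn stood at 3.36, 3.67 and 2.71 TPM in uninduced clone 15. Single genes did overlap in uninduced cells, Thy1 at 8.32 to 16.1 TPM in WT and 10.6 to 28.7 TPM in ΔCdk8. Col1a1 stood at 0.144 to 0.625 and 0.462 to 3.36 TPM there, and Col1a2 at 0.0902 to 0.539 and 0.0793 to 3.67 TPM. Of the tested fibroblast markers, 0 of 4 in uninduced and 1 of 2 in induced cells (Thy1) were higher at an unadjusted edgeR p under 0.05, beside 20.4% and 25.9% of all genes, and 1 marker (Lum) was at 0 in all induced WT libraries. The 6 primitive endoderm markers summed to 5.65 to 9.32 TPM in WT, 5.68 and 6.58 TPM in clone 8 and 10.7 to 11.5 TPM in clones 11 and 15. Gata4 was the 1 of 5 tested that was higher in ΔCdk8 at that p in each state, near those shares. The part of these differences in the levels of Nodal, Lefty1, Lefty2, Tdgf1 and Gdf3 was not tested.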

How the data were processed

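PolyA RNA of 12 libraries was sequenced as stranded, single-end reads. The authors used CLC Genomics Workbench to map untrimmed reads to GRCm38 (Ensembl), and for each library deposited a table of raw read counts per gene. The deposited TPM values were recomputed from exon reads and exon length and differed by a share of at most 0.000196.

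Tests used total gene reads in edgeR 4.0.16 with R 4.3.3 (quasi-likelihood F test after TMM scaling, on genes kept by filterByExpr at 10 counts and 15 in total), and p-values were adjusted by Benjamini-Hochberg over every gene tested. Calls needed a more than 2-fold change with an adjusted p under 0.01. Standard errors were obtained by dividing the log2 fold change by the square root of F. DESeq2 1.42.0 was the alternative tool. TPM ratios, figures and permutation tests used Python 3.11.15, numpy 2.4.6, pandas 2.3.3, scipy 1.17.1 and matplotlib 3.10.9. The steps were tested on simulated counts with 1 fixed dispersion and no pair or clone effects, which does not show the power of the fits on these data. Promoter sequences come from RefSeq and transcripts from GENCODE M21.

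Groups and numbers were taken from the sample titles and descriptions. Over 14661 genes, deviations from the group means correlated by 0.583 to 0.692 between WT libraries of the same number and by 0.858 to 0.915 between libraries of the same clone. For different numbers the correlations were -0.655 to 0.412 and -0.707 to 0.0319. The numbers were therefore taken as pairs.

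The genes and lists were chosen with earlier results of these data known. Of the pathway lists, genes called in a comparison and the detected gene (mean of at least 1 TPM) with the largest uninduced genotype change per list were named. For each member the 3 nearest profiles and the nearest neighbours of Gdf3 were also named, and single markers were chosen after their values were seen. Exon reads with a block, and the omission of a pair in both states, were added after seeing the data. Xist and raw reads were not analysed here, and some genes and sequences that the rules chose are not reported here.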

Additional observations from a re-analysis of the deposited data

Results flagged for a closer look

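Of the 5 genes, 3 changed differently on induction in the 2 genotypes by a test of the difference itself, the interaction blocked by WT number and clone (edgeR, adjusted p under 0.05, which 6.01% of all genes passed). The log2 change in ΔCdk8 minus that in WT was 1.87 for Lefty2 (SE 0.26, adjusted p = 0.00464), 1.96 for Lefty1 (SE 0.45, adjusted p = 0.033) and -1.16 for Nodal (SE 0.19, adjusted p = 0.00934). Each of the 3 clone pairs lay above each of the 3 WT pairs for the Lefty genes and below them for Nodal. Leaving out 1 pair took Lefty1 above 0.05 for WT 2 and for clones 8, 11 and 15 (0.0781 to 0.153), and Nodal for clones 8 and 15 (0.0611 and 0.0549). Without the block none of them passed, with edgeR adjusted p-values of 1.0. With 3 libraries per group, no test for a library far from its group was made.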

How the results depend on the processing

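None of the 5 genes passed the threshold in edgeR without a block in any of the 5 comparisons over all libraries, and without induced WT 1 Lefty1 passed in the WT induction (-3.26, adjusted p = 0.0089). DESeq2 called 1 of them in uninduced cells (Lefty2), 2 in induced cells (Lefty1 and Lefty2) and 3 in the WT induction (Lefty1, Lefty2 and Tdgf1), where an adjusted p under 0.05 with no fold minimum also gave 3 (Lefty1, Nodal and Tdgf1). The replicate block called 2 in the WT induction, 1 in the ΔCdk8 induction and 2 in the interaction, and exon reads with the block gave 2, 1 and 2. Over all genes the block raised the calls from 162 to 553, from 0 to 208 and from 0 to 151. DESeq2 gave 386 in uninduced and 821 in induced cells against 0, and 662 in the WT induction. The causes of these differences were not tested. Leaving out single libraries or pairs gave 0 to 3 calls in the WT induction, 0 to 1 in the ΔCdk8 induction and 0 to 3 in the interaction.

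The sign of the Nodal change in ΔCdk8 induction was reversed with the block (-0.18, and -0.15 with exon reads), and stayed so in the blocked fit without clone 8 (-0.09), 11 (-0.42) or 15 (-0.07). Gdf3 in the blocked interaction was 0.02 without WT 1. Leave-one-out values crossed 0 for Nodal (-1.25 to 0.85), Lefty1 (-4.19 to 0.57), Lefty2 (-1.70 to 0.09) and Gdf3 (-0.58 to 0.19) in the ΔCdk8 induction, for Lefty1 (-0.44 to 4.34) and Gdf3 (-0.48 to 0.33) in the interaction, for Nodal (-0.78 to 0.36) and Lefty1 (-0.03 to 2.64) in uninduced cells, for Tdgf1 (-0.21 to 0.39) in induced cells and for Gdf3 (-0.36 to 0.06) in the WT induction. The Lefty to Nodal ratio kept its direction under every alternative, at 1.35 to 2.86 in uninduced and 4.80 to 5.95 in induced cells. Lefty1 in induced WT, at 2 to 21 reads, is limited by depth. The DESeq2 adjusted p for Lefty1 in ΔCdk8 induction was not given by the tool.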
